A study of Mus musculus with 6 samples.

Results

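The genes described here encode the TRIM family of RING ubiquitin ligases, the F-box proteins named FBXW, FBXL and FBXO, and the cullins, in mouse 4T1 cells treated with LP-184. Members were the rows whose symbol begins with Trim, Fbxw, Fbxl, Fbxo or Cul followed by a digit, with Trim25 left out. This rule took 93 of the 12656 genes in the table: 36 TRIM, 28 FBXO, 14 FBXL, 8 FBXW and 7 cullin symbols. One of them, Fbxl12os, is an antisense transcript that the pattern takes in by its symbol and not an F-box gene.

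The libraries were 3 from 4T1 cells given LP-184 for 48 h and 3 from 4T1 cells given DMSO, the solvent. 4T1 is a mouse mammary carcinoma line labelled as triple-negative breast cancer, and LP-184 is an investigational DNA-alkylating drug. Bulk sequencing of polyA RNA gave 22471753, 20635850 and 18952393 reads over the table's genes in the LP-184 libraries, and 18864368, 21585323 and 18996470 in the DMSO libraries. The sources used here give neither the dose nor whether replicates were separate cultures; a p-value therefore reflects the spread among these 6 libraries, and that spread may be technical. Libraries of the same group correlated at r of at least 0.9942 over 11931 genes and libraries of different groups at no more than 0.9165, as a description. Levels are CPM, reads scaled to library size. In bulk RNA, fewer cells with a transcript and less of it per cell cannot be told apart.

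As background, a cullin is a scaffold that holds a RING protein, which recruits the ubiquitin-charged E2 enzyme, at one end and a substrate receptor at the other. CUL1 takes its substrates through SKP1 and an F-box protein, whose WD40 repeats (FBXW), leucine-rich repeats (FBXL) or other domains (FBXO) bind the target. CUL3 uses BTB proteins, CUL4 uses DDB1 with DCAF proteins, and CUL2 and CUL5 use elongins B and C. Attachment of the ubiquitin-like NEDD8 turns cullins on and the COP9 signalosome removes it. TRIM proteins work outside this system, as single-chain ligases with a RING, B-boxes and a coiled coil, and many act in antiviral defence or as chromatin cofactors.

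Of the 93 members, 88 reached a log2 CPM of 0 in at least 3 libraries and were tested together with all 11931 such genes. With limma and an adjusted p below 0.05, 37 members were higher with LP-184, 30 were lower and 21 were not called. The 67 called members made up 76.1% of those tested, against 78.3% of all genes. The share called higher was 42.0% (38.3% of all genes) and the share called lower 34.1% (40.0% of all genes), so the members as a set sat near the background of a comparison in which most genes moved. The median log2 fold change was 0.10 for members and −0.01 for all genes. At 2-fold or more, 9 members were higher, 10.2% against 8.08% of all genes, and 13 were lower, 14.8% against 12.6%; with quantile normalization the members higher by 2-fold or more numbered 14. The values of the LP-184 and DMSO libraries did not overlap for 70 of the 88 members (79.5%, against 79.1% of all genes); these were the 67 called members together with Trim3, Trim59 and Trim68. Fbxo36 and Trim30a passed the filter on low values through the DMSO libraries alone, and Trim15 through the LP-184 libraries alone.

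By family, of the cullins, 1 was higher and 6 were lower (median log2 fold change −0.59). FBXW had 2 higher, 4 lower and 2 not called (median −0.14), and FBXL had 6 higher, 6 lower and 1 not called (median 0.18). FBXO had 13 higher, 6 lower and 8 not called (median 0.13), and TRIM had 15 higher, 8 lower and 10 not called (median 0.17). Beside these counts, 38.3% of all genes were higher and 40.0% lower. Whether the families differ from each other was not tested.

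**Figure D1:**
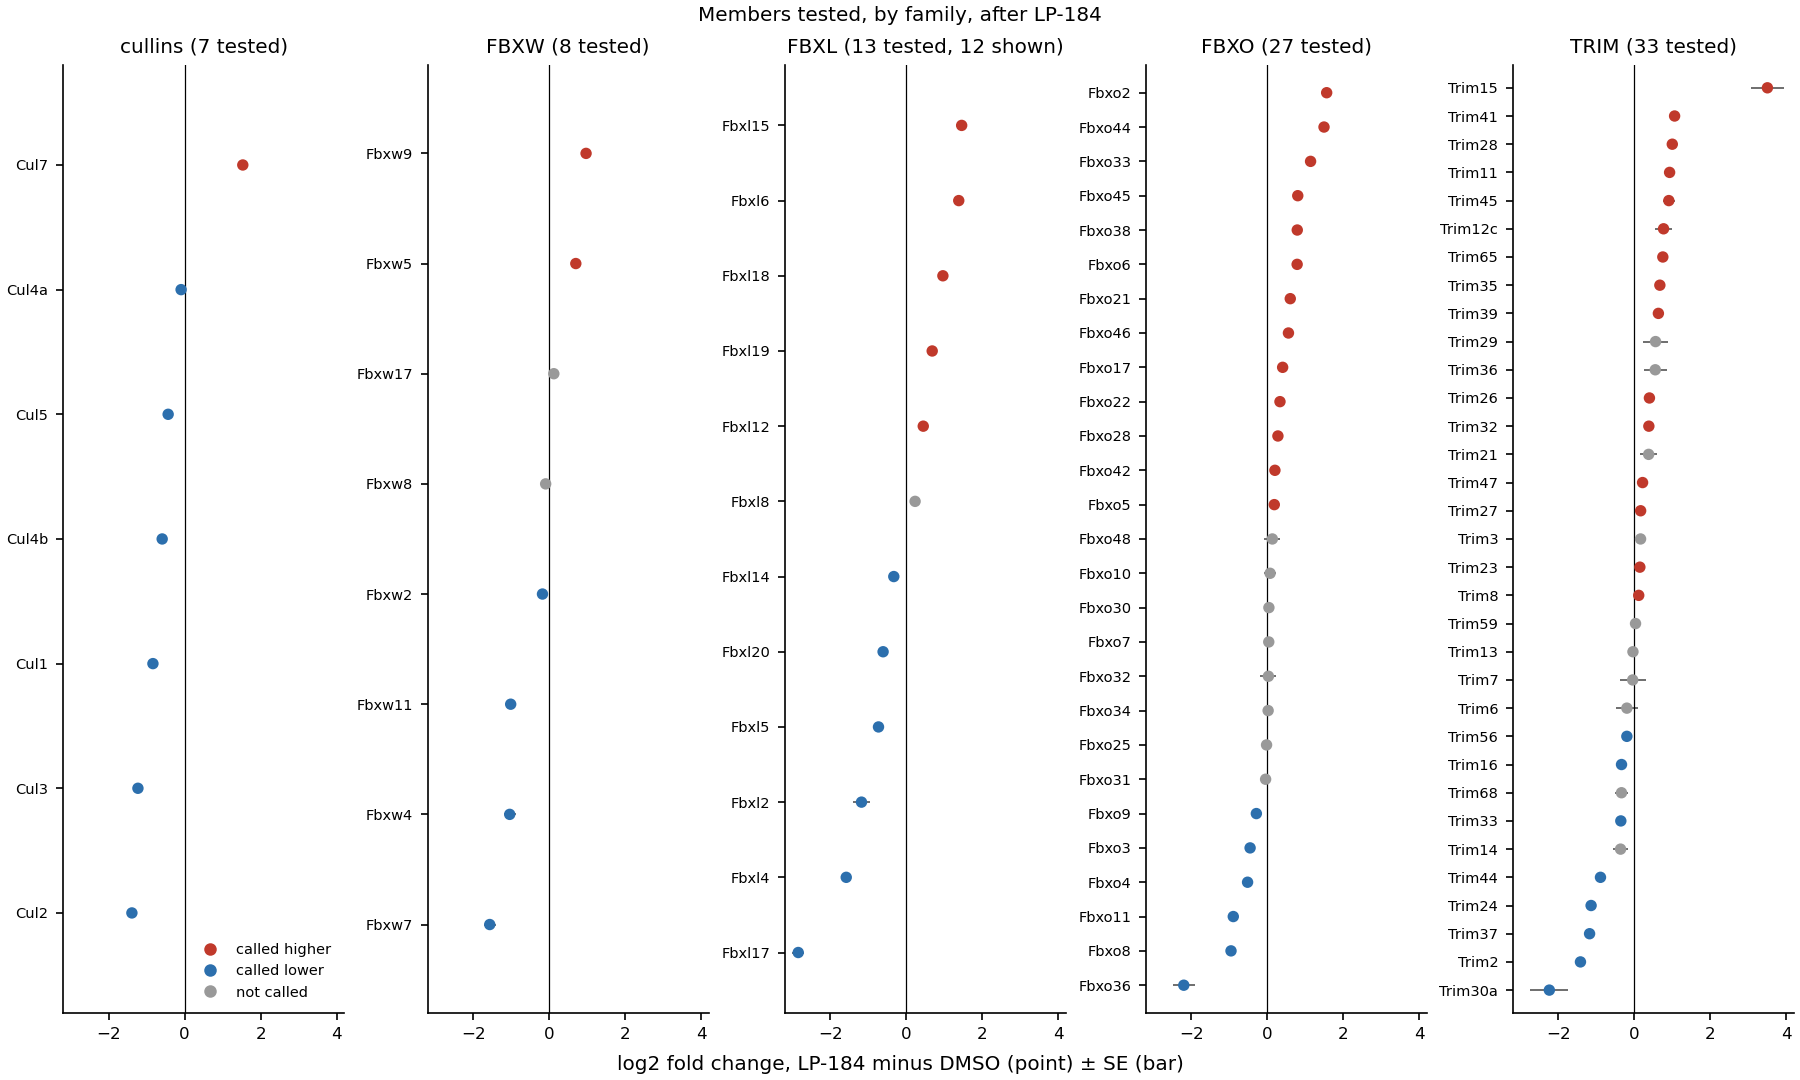
Log2 fold change (LP-184 minus DMSO, point) with its standard error (bar) for 87 of the 88 members tested, 1 panel per family and 1 line per gene, sorted by value. Cul7 stands at 1.53 to the right of 0 while the other 6 cullins are to its left, and both signs occur in each of the other families.

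Among the scaffolds, Cul7 was higher with LP-184 and every other measured cullin was lower. Cul2, the scaffold that carries VHL and similar receptors, had 46.8, 48.7 and 44.1 CPM in LP-184 cells, against 118, 123 and 125 CPM in DMSO cells. The 3 LP-184 libraries lay together well below the 3 DMSO libraries, with a log2 fold change of −1.39 ± 0.04 (SE), or 2.62-fold lower. Cul3, the scaffold of the BTB ligases, had 69.7, 74.4 and 70.2 CPM in LP-184 cells, against 173, 164 and 166 CPM in DMSO cells. Its log2 fold change was −1.23 ± 0.04, with no overlap between the groups. Cul1, the scaffold that F-box proteins join, had 76.5, 73.7 and 74.7 CPM in LP-184 cells, against 134, 134 and 133 CPM in DMSO cells. Both groups were tight for Cul1, and its log2 fold change was −0.83 ± 0.04, or 1.78-fold lower.

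The paralogues Cul4a and Cul4b, both scaffolds for DDB1 and DCAF receptors, were both lower. Cul4b had 114, 106 and 111 CPM in LP-184 cells, against 167, 159 and 172 CPM in DMSO cells, a log2 fold change of −0.59 ± 0.04. Cul4a had 218, 219 and 224 CPM in LP-184 cells, against 228, 243 and 234 CPM in DMSO cells, and its groups were separated by a small gap. Its log2 fold change of −0.09 ± 0.03 passed the threshold (limma adjusted p = 0.0036), but with each library centred on its median it was −0.01 and was not called. Cul4a also lost its call when the fit used no variance trend. Cul5, which works with SOCS-box receptors, had 91.7, 92.3 and 84.8 CPM in LP-184 cells, against 115, 122 and 126 CPM in DMSO cells, a log2 fold change of −0.43 ± 0.04. Per kb of annotated exon, Cul4a had 34.4 CPM in LP-184 cells and 36.7 CPM in DMSO cells. Cul4b had 28.5 CPM per kb in LP-184 cells and 42.9 in DMSO cells, so Cul4b averaged above Cul4a in DMSO cells and below it in LP-184 cells on this scale.

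Cul7 (chr17:46650337-46664364, plus strand, GRCm38) encodes an atypical scaffold that pairs with FBXW8 and is mutated in human 3M growth syndrome. It had 28.4, 28.5 and 26.5 CPM in LP-184 cells, against 8.15, 9.51 and 11.2 CPM in DMSO cells. The lowest LP-184 library was more than 2-fold above the highest DMSO library, and the log2 fold change was 1.53 ± 0.10 (2.89-fold higher). Its partner Fbxw8 had 69.8, 71.3 and 67.3 CPM in LP-184 cells, against 78.4, 74.6 and 69.7 CPM in DMSO cells. The Fbxw8 groups overlapped, with a log2 difference of −0.09 ± 0.05 that did not pass the threshold (limma adjusted p = 0.059). It was called lower with quantile normalization (−0.11), without LP-184 replicate 2 (−0.11) and without DMSO replicate 3 (−0.14), and higher with the length trend removed (0.64). Per kb of exon Cul7 was the lowest of the cullins in both groups, at 3.75 CPM in LP-184 cells and 1.30 in DMSO cells.

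**Figure D2:**
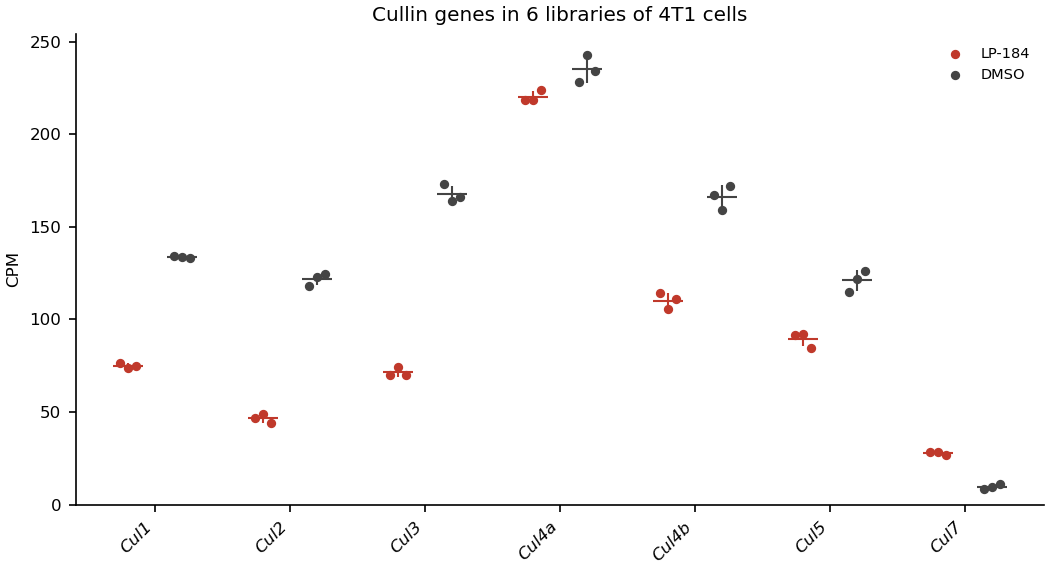
CPM of the 7 cullin genes in each library (points), with the group mean (horizontal line) and SD (vertical line), LP-184 left of DMSO for each gene and n = 3 in each group. The LP-184 points of Cul1, Cul2, Cul3, Cul4b and Cul5 lie below all DMSO points, those of Cul7 lie above them, and the Cul4a groups nearly touch.

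Of the WD40 F-box genes, Fbxw7, Fbxw4, Fbxw11 and Fbxw2 fell, and Fbxw9 and Fbxw5 rose. Fbxw7 (chr3:84815268-84979198, plus strand, GRCm38) encodes the receptor for cyclin E, MYC, JUN and NOTCH and is a tumour suppressor gene. It had 3.02, 4.36 and 2.88 CPM in LP-184 cells, against 11.2, 10.2 and 9.20 CPM in DMSO cells. No LP-184 library reached even the lowest DMSO library, and the log2 fold change was −1.57 ± 0.16 (2.96-fold lower). With the trend of fold change on gene length over all genes removed it was −0.09 and not called. Fbxw11 encodes β-TrCP2, a receptor for β-catenin and IκBα, and had 64.5, 66.6 and 66.9 CPM in LP-184 cells, against 137, 127 and 137 CPM in DMSO cells. Its log2 fold change was −1.02 ± 0.04. The gene of its close paralogue β-TrCP1, Btrc, which the symbol rule does not take in, averaged 4.18 ± 0.512 CPM in LP-184 cells and 23.1 ± 1.48 CPM in DMSO cells (SD, n = 3 each), which is −2.44 on the log2 scale. Both genes for β-TrCP were therefore lower. Fbxw4, named dactylin for its role in digit formation, changed by −1.04 and Fbxw2 by −0.18. Fbxw9 changed by 0.97 and Fbxw5, a receptor for the centriole protein SAS-6, by 0.70. Fbxw17 was not called, at a difference of 0.12.

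Among the leucine-rich repeat receptors, Fbxl17 had the largest fall of all members tested. Fbxl17 (chr17:63057452-63500017, minus strand, GRCm38) serves dimerization quality control of BTB proteins, the receptors of CUL3 ligases. It had 2.45, 1.96 and 1.89 CPM in LP-184 cells, against 15.9, 15.2 and 15.6 CPM in DMSO cells. The groups were narrow and far apart, with a log2 fold change of −2.84 ± 0.15 (7.16-fold lower). With the length trend removed it was −0.20 and not called. Fbxl4, a receptor at mitochondria whose human mutations deplete mitochondrial DNA, had 8.76, 8.81 and 8.17 CPM in LP-184 cells, against 26.4, 24.4 and 26.6 CPM in DMSO cells. This was a log2 fold change of −1.58 ± 0.09. The membrane-bound receptor Fbxl2 changed by −1.18 ± 0.23. Fbxl5, the iron sensor that marks IRP2 for degradation, had 73.0, 75.9 and 67.2 CPM in LP-184 cells, against 116, 123 and 119 CPM in DMSO cells, a log2 fold change of −0.73 ± 0.04.

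Other FBXL genes were higher. Fbxl15, a receptor for the BMP-pathway ligase SMURF1, had 43.5, 39.6 and 38.7 CPM in LP-184 cells, against 14.4, 13.5 and 16.2 CPM in DMSO cells. The lowest LP-184 library was more than 2-fold above the highest DMSO library, and the log2 fold change was 1.46 ± 0.08 (2.76-fold higher). Fbxl15 shares 25.6% of its exon bases with Cuedc2 and Fbxl12 shares 37.1% with Ubl5, and as the strand setting of the counting is not given, reads in those stretches cannot be assigned to one gene with certainty. The same holds for Fbxw8, with 33.4% of its exon bases shared with Gm9754, Fbxw4, with 21.4% shared with Gm17018, and Fbxl2, with 11.2% shared with Ubp1. Fbxl6 changed by 1.39 ± 0.09, Fbxl18 by 0.97 and Fbxl19, which carries a CpG-binding zinc finger, by 0.69. Fbxl12 changed by 0.45.

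In the FBXO family, 3 adjacent genes of the FBA-domain group were all higher. Fbxo2 and Fbxo6 bind sugar chains on misfolded glycoproteins that are returned from the endoplasmic reticulum, and Fbxo44 is their relative with the same domain. They lie side by side on chromosome 4 (GRCm38): Fbxo6 at chr4:148145716-148152140 and Fbxo44 at chr4:148152800-148160482 on the minus strand, and Fbxo2 at chr4:148160621-148166424 on the plus strand. Fbxo2 had 134, 142 and 141 CPM in LP-184 cells, against 46.2, 46.3 and 48.4 CPM in DMSO cells. Its log2 fold change was 1.56 ± 0.04 (2.96-fold higher), the largest rise among the F-box and cullin members. Fbxo44 had 15.5, 16.3 and 14.4 CPM in LP-184 cells, against 5.36, 5.13 and 5.73 CPM in DMSO cells, a log2 fold change of 1.49 ± 0.12. Fbxo6 had 95.7, 92.8 and 93.5 CPM in LP-184 cells, against 54.0, 50.8 and 58.9 CPM in DMSO cells, a log2 fold change of 0.79 ± 0.05. None of the 3 genes had overlapping groups.

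Fbxo44 and Fbxo2 are read in opposite directions from annotated starts that are 0.138 kb apart. The bases between the starts are shown because this pair rose by like amounts; they run along the plus strand of chr4:148160483-148160620 (RefSeq, GRCm38.p6), with CpG pairs in capitals.
Fbxo44 to Fbxo2: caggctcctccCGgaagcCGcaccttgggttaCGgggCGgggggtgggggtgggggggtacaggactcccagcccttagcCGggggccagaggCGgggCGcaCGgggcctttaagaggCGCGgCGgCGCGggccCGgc
This stretch holds 14 CpG pairs and 77.5% of its bases are G or C. No background for these 2 values was computed, and whether the stretch bears on the rises was not tested. The gap between Fbxo6 and Fbxo44 is 0.659 kb. Neighbouring members elsewhere moved in the same direction in some pairs and not in others. Trim47 and Trim65 changed by 0.22 and 0.75, but they overlap on the same strand with 225 exon bases in common, so reads may be shared. Trim41 and Trim7, also read apart from starts 8.79 kb from each other, had 1.06 and −0.04, and Trim12c and Trim30a had 0.77 and −2.24.

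Other FBXO genes moved in both directions. Fbxo33 had 63.8, 65.9 and 61.0 CPM in LP-184 cells, against 28.2, 29.0 and 29.1 CPM in DMSO cells, a log2 fold change of 1.14 ± 0.05. Fbxo45, the receptor of an atypical ligase with the neuronal protein PHR1, changed by 0.80 ± 0.06. Fbxo5, also called EMI1, blocks the anaphase-promoting complex and had 67.2, 66.3 and 72.7 CPM in LP-184 cells, against 60.0, 64.9 and 56.6 CPM in DMSO cells. The Fbxo5 groups were separated by a narrow gap, with a log2 fold change of 0.19 ± 0.05 (limma adjusted p = 0.0011).

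Fbxo36 had the largest fall of the family, −2.20 ± 0.29, on few reads. It was at 0.832, 0.431 and 0.734 CPM in LP-184 cells, against 4.51, 2.89 and 2.78 CPM in DMSO cells, which is 42 reads over the LP-184 libraries and 198 over the DMSO libraries. Fbxo8, which carries a Sec7 domain, changed by −0.95 ± 0.06. Fbxo11, a receptor for BCL6 and the licensing regulator CDT2, had 27.6, 27.8 and 29.4 CPM in LP-184 cells, against 54.1, 48.3 and 55.6 CPM in DMSO cells. No Fbxo11 value was shared between groups, and the log2 fold change was −0.89 ± 0.06. Fbxo4, described as a cyclin D1 receptor, changed by −0.52 and Fbxo3, a receptor for FBXL2, by −0.45.

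The remaining named FBXO genes were not called. Fbxo31, a receptor for cyclin D1 after DNA damage, had 48.6, 47.5 and 47.8 CPM in LP-184 cells, against 46.0, 50.5 and 52.0 CPM in DMSO cells, with the LP-184 values inside the DMSO range. The difference was −0.04 ± 0.05 (limma adjusted p = 0.47). Fbxo32, the atrogin-1 ligase of muscle wasting, averaged 3.24 ± 0.410 CPM in LP-184 cells and 3.21 ± 0.740 CPM in DMSO cells (SD, n = 3 each), with overlapping groups.

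Of the TRIM genes that act on chromatin, Trim28 and Trim27 rose and Trim24 and Trim33 fell. Trim28 (chr7:12999114-13031035, plus strand, GRCm38) encodes KAP1, the corepressor that KRAB zinc-finger proteins bring to transposable elements. It had 673, 640 and 659 CPM in LP-184 cells, against 320, 331 and 334 CPM in DMSO cells. The log2 fold change was 1.00 ± 0.02 (2.00-fold higher), with 158 CPM per kb of exon in LP-184 cells and 78.9 in DMSO cells, the highest level of any member on that scale in both groups. Its relatives of the TIF1 group were lower, but with the length trend removed Trim33 was called higher (0.26). Trim24, encoding the nuclear receptor cofactor TIF1α, had 9.90, 11.3 and 13.3 CPM in LP-184 cells, against 26.4, 23.8 and 25.4 CPM in DMSO cells, a log2 fold change of −1.14 ± 0.10. Trim33, encoding the SMAD regulator TIF1γ, had 41.8, 40.1 and 42.9 CPM in LP-184 cells, against 55.0, 51.4 and 53.0 CPM in DMSO cells, a log2 fold change of −0.35 ± 0.05. Trim27, a RING repressor first found as a RET fusion partner, changed by 0.17 ± 0.04, with 129, 123 and 121 CPM in LP-184 cells, against 105, 114 and 114 CPM in DMSO cells. Neither Trim24, Trim33 nor Trim27 had overlapping groups.

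Among the other TRIM genes, Trim37, a regulator of centriole assembly and peroxisomes, had 51.2, 53.0 and 48.7 CPM in LP-184 cells, against 112, 117 and 117 CPM in DMSO cells. This was a log2 fold change of −1.18 ± 0.04, and the groups were far apart. Trim2, a ligase for neurofilament light chain, had 5.91, 6.04 and 7.96 CPM in LP-184 cells, against 16.8, 17.4 and 19.0 CPM in DMSO cells, a log2 fold change of −1.42 ± 0.12. Trim44, which has no RING, changed by −0.89. Trim41 changed by 1.06, Trim11 by 0.93, Trim45 by 0.91 and Trim35 by 0.67. Trim59 had 129 CPM in every LP-184 library, against 124, 126 and 128 CPM in DMSO cells. Its difference of 0.03 ± 0.03 was not called. It was called higher with each library centred on its median (0.12) and lower with the length trend removed (−0.32). Of 9 listed TRIM genes of cytoskeleton and muscle, Trim36 alone was tested, and its difference of 0.55 ± 0.30 was not called.

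Trim15, which codes for a focal adhesion protein, fell outside the rule for named genes through its low level and was chosen after its values were seen. It had 1.36, 2.30 and 1.94 CPM in LP-184 cells, against 0.107, 0.140 and 0 CPM in DMSO cells. In reads these were 31, 48 and 37 in the LP-184 libraries, against 2, 3 and 0 in the DMSO libraries. Its log2 fold change of 3.51 ± 0.44 was the largest of all members, but with 5 DMSO reads its size depends on the prior count, and the authors' deposited table gives 4.35. Trim15 lies tail to tail with Trim26 on chromosome 17, with 1.29 kb between them; Trim26 had 35.9, 40.9 and 36.4 CPM in LP-184 cells, against 27.0, 30.5 and 28.1 CPM in DMSO cells (0.40 ± 0.07). The 250 bases before the annotated start of Trim15 (chr17:36867211-36867460, minus strand, RefSeq, GRCm38.p6) are shown for this rise. They carry the letters TGATGCAA, a match to the C/EBP-ATF response element pattern TGATGNAA, at 195 bases before the start, in capitals.
Trim15: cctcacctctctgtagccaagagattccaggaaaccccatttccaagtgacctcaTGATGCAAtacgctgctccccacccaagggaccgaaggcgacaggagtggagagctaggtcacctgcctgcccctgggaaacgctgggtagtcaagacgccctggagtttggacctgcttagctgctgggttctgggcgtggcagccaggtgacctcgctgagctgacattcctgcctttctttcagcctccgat
RefSeq windows of 300 bases (250 before to 50 after each start) were searched on both strands. TGATGNAA occurred in 7 of 100 member windows and in 3.97% of all 32851 windows. By genes this was 5 of 69 members with a window, against 4.51% of all genes with one. The others were Fbxo48 (not called), Trim24 (called lower) and Trim34a and Trim46 (not tested). The Trim15 windows also held the AP-1 letters TGACTCA after the start. Whether any of these letters bear on the rise was not tested.

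Many TRIM genes are induced by interferon and are known for antiviral defence. Of 15 such genes listed, 9 were in the table and 7 were tested, of which Trim12c and Trim26 were higher, Trim30a and Trim56 were lower and 3, Trim6, Trim14 and Trim21, were not called. Trim12c, a mouse relative of the retrovirus restriction factor TRIM5, had 4.16, 3.45 and 3.09 CPM in LP-184 cells, against 1.77, 1.77 and 2.68 CPM in DMSO cells. The gap between its groups was small (0.77 ± 0.22, limma adjusted p = 0.0024), and 33.0% of its 50-base words also occur in other genes, among them Trim5 and Trim12a, so reads may be shared. Trim30a, a mouse gene that restrains Toll-like receptor signalling, had 0, 14 and 5 reads in the LP-184 libraries, against 28, 34 and 18 in the DMSO libraries. No LP-184 library reached the DMSO range, with a log2 fold change of −2.24 ± 0.50, but Trim30a had entered the test through the DMSO libraries alone. Of its 50-base words, 5.98% also occur in Trim30d, so reads may be shared. Trim56, an antiviral RNA-binding ligase, changed by −0.19 ± 0.07 (limma adjusted p = 0.013) and lost its call in 5 of the alternatives tried. Trim21, the cytosolic antibody receptor, had 3.77, 3.35 and 2.83 CPM in LP-184 cells, against 3.33, 1.77 and 2.68 CPM in DMSO cells, and its overlapping groups gave 0.38 ± 0.23 (limma adjusted p = 0.13). It was called higher with quantile normalization (0.63) and without DMSO replicate 1 (0.58).

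The RefSeq promoter windows of these genes were searched on both strands for the core of the interferon-stimulated response element, which reads GAAA, any 2 bases and GAAA again. Windows were found for 8 of the 9 interferon-listed genes in the table, and 5 of them held it, as did 5 of 61 other members with a window. By windows, 12 of 100 held it among members, against 3.44% of all RefSeq windows. The matches are shown to set genes that moved up, moved down or were not called side by side, each 5′ to 3′ on the strand of the gene (GRCm38.p6) with the core letters in capitals.
Trim12c (chr7:104353359-104353388, minus strand): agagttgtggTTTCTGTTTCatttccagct
Trim26 (chr17:36836979-36837008, plus strand): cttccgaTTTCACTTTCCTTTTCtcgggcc
Trim30a (chr7:104465210-104465239, minus strand): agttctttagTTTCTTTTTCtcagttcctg
Trim21 (chr7:102565447-102565476, minus strand): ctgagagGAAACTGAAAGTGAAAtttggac
Trim34a (chr7:104244457-104244486, plus strand): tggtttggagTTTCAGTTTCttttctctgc
Trim26 and Trim21 hold overlapping copies of the core. In the stretches shown, the core letters of Trim21 and Trim34a lie after the annotated start, within an exon. Those of Trim12c, Trim26 and Trim30a lie before it. Trim12c and Trim26 rose, Trim21 was not called and Trim34a was too low to test. Trim30a fell, but it had entered the test through the DMSO libraries alone. Whether these letters bear on any of the changes was not tested. Trim6, Trim34b and Trim56 had no match in their windows. The letters of the AP-1 site (TGANTCA) were in 10 of 100 member windows and 7.81% of all windows, those of the cAMP element (TGACGTCA) in 2 and 1.79%, and those of the NF-kB site (GGGA, any base, TTTCC) in 0 and 0.411%.

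**Figure D3:**
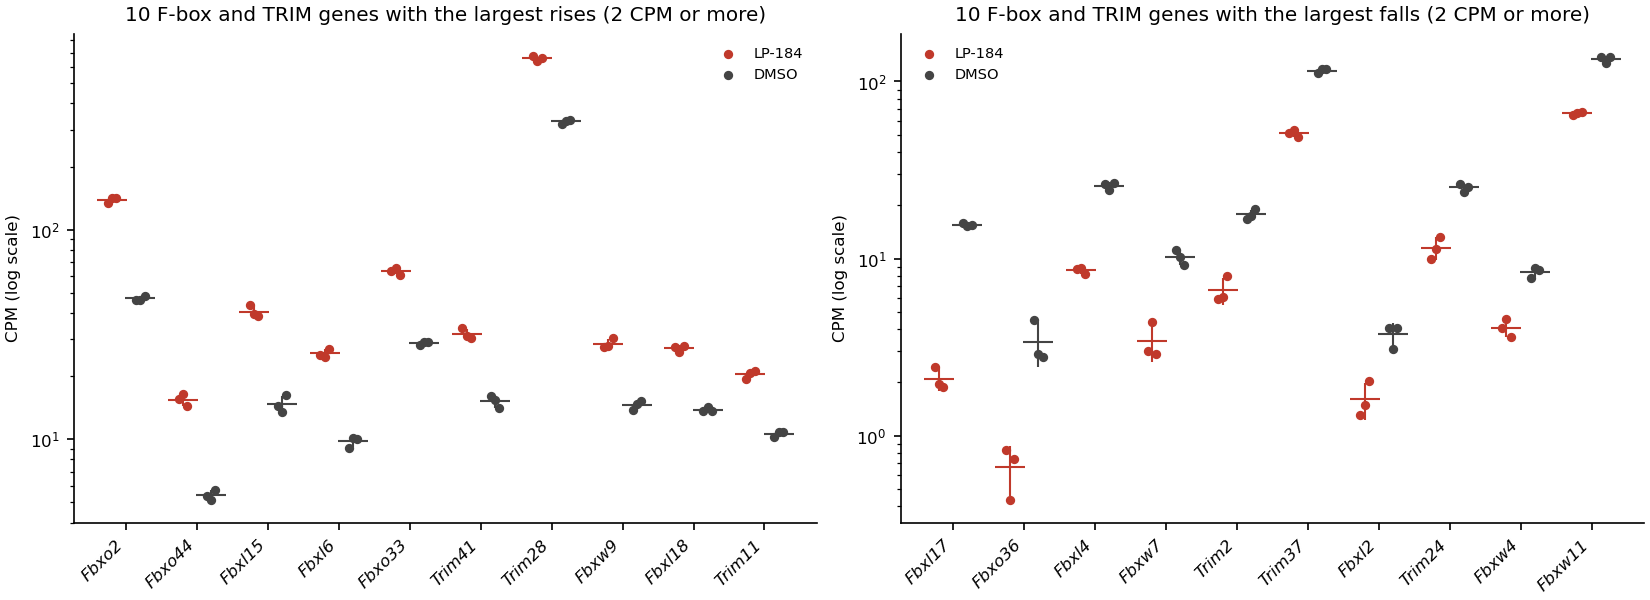
CPM in each library (points, log axis) with the group mean (horizontal line) and SD (vertical line), LP-184 left of DMSO and n = 3 in each group, for the 10 called F-box and TRIM genes of largest rise and the 10 of largest fall among those averaging 2 CPM or more in the higher group. No called member had overlapping groups, so the lack of overlap in these 20 follows from picking called genes and is not a separate result. Trim28 and Fbxl17 mark the most abundant of the rises and the widest of the falls.

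The direction of a member's change went with the length of its gene from first to last annotated base. Over the 88 members, log2 fold change and span had a Spearman correlation of −0.69, against −0.50 over 11462 genes; this is a description across genes, which are not independent and share the same 6 libraries. Of the 27 members under 15 kb, 18 were higher and 3 lower (66.7% and 11.1%), with a median log2 fold change of 0.70. Among all genes of that length 52.7% were higher and 21.3% lower, with a median of 0.25. From 15 to 40 kb, 17 of 31 were higher (54.8%, against 47.4% of all genes of that length) and 4 lower (12.9%, against 29.5%), with medians of 0.17 for members and 0.12 for all genes. From 40 to 80 kb, 2 of 19 were higher (10.5%, against 19.7% of all genes of that length) and 14 lower (73.7%, against 59.5%), with medians of −0.61 for members and −0.28 for all genes. At 80 kb and above, 0 of 11 were higher (4.53% of all genes of that length) and 9 were lower (81.8%, against 88.2%), with medians of −1.14 for members and −1.16 for all genes, so the longest members sat near the background. Members called higher had a median span of 15.1 kb, those called lower 70.3 kb and those not called 26.1 kb.

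With the trend of fold change on span over all genes removed, 32 members were higher and 30 lower. At 2-fold or more, 6 rather than 9 were higher and 4 rather than 13 were lower. The members called were not all the same genes. Of the 67 called members, 51 kept call and direction, 12 lost the call and 4 were called in the opposite direction. Another 7 gained a call. The log2 fold change became −0.20 for Fbxl17 (443 kb), −0.09 for Fbxw7 (164 kb) and −0.10 for Trim2 (146 kb), none of them called, and −0.13 for Fbxw11 (104 kb). Cul2 kept −1.15 and Cul3 −0.67, and Fbxl4 was still lower by 2-fold, so these genes lay below the trend for their length. Cul4b stood at −0.51, Cul1 at −0.30 and Cul5 at −0.16, each still called lower. The median of the cullins went from −0.59 to −0.30. Fbxo36 stood at −1.84 and Trim30a at −1.95, but both had entered the test through the DMSO libraries alone. Of the rises, Cul7 had 1.21, Fbxo2 1.20, Fbxo44 1.11 and Trim28 0.97. Some long members went against the trend: Fbxw8 (90.5 kb) stood at 0.64 and Fbxo34 (81.5 kb) at 0.66 once it was removed, and both were called higher. Of the 50-base words of Fbxo34, 16.7% also occur in other genes, as do 8.71% of those of Fbxo5, so reads may be shared. Fbxo38 (44.5 kb) was higher without removal (0.79 ± 0.06). Removal turned the sign of Fbxo5 (−0.19), Trim8 (−0.19), Trim27 (−0.14) and Trim33 (0.26), each still called. Trim44 (0.03), Trim12c (0.46) and Cul4a (−0.02) were among those no longer called. Among short genes, Fbxl14, a receptor for SNAI1 that spans 2.96 kb, was lower (−0.32 ± 0.06).

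**Figure D4:**
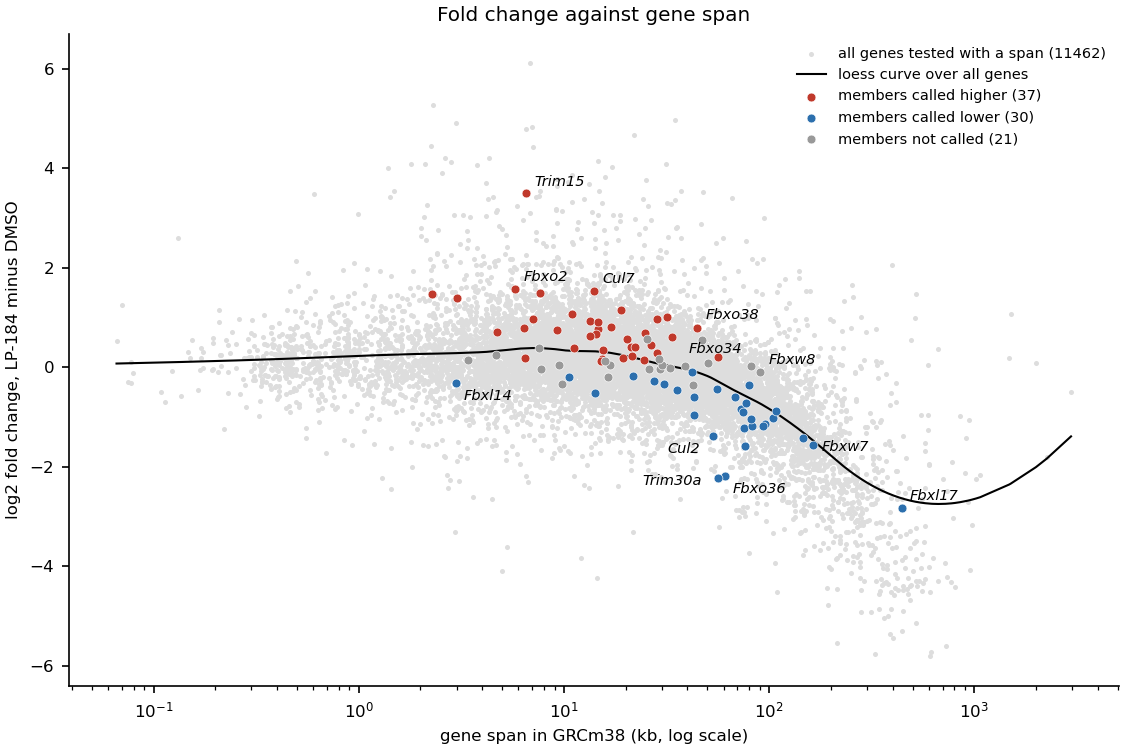
Log2 fold change (LP-184 minus DMSO) against gene span in kb (log axis) for 11462 genes (grey) and the 88 members (red called higher, blue called lower, dark grey not called), with the loess curve over all genes. Members follow the downward course of the curve, while Cul2, Trim30a and Fbxo36 (the last 2 tested through the DMSO libraries alone) lie below it and Fbxo38 and Fbxw8 above it.

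The genes that work with the cullins were described from lists, each by its count and median, to be read beside all genes, of which 38.3% were higher and 40.0% lower with a median of −0.01. Of 10 core and adaptor genes, 5 were higher, 4 lower and 1 not called (median 0.08): Dda1, a CUL4 ligase component, changed by 0.46 and Elob, elongin B, by 0.43, while Arih1, a ligase that joins active cullins, changed by −0.93 and Glmn, an inhibitor of RBX1, by −0.73. Of 10 neddylation genes, 7 were lower, 1 higher and 2 not called (median −0.45). Dcun1d1, which promotes NEDD8 transfer to cullins, changed by −1.05 and Uba3, the catalytic part of the NEDD8-activating enzyme, by −0.67, while Nedd8 itself changed by 0.25. With the length trend removed the list's median was −0.39, and Nedd8 stood at −0.09. Of 13 COP9 signalosome and receptor exchange genes, 5 were higher, 5 lower and 3 not called (median −0.05). Gps1 (0.56) and Cops8 (0.52) were among the higher signalosome subunits and Cops2 (−0.38) and Cops3 (−0.34) among the lower.

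Receptors outside the symbol rule were also spread over both directions. Of 6 F-box genes with other names, 4 were higher and 2 lower (median 0.20). In that list Lmo7 changed by 0.92 and Skp2, the receptor for p27, by 0.30, while Ccnf, encoding cyclin F, changed by −0.18. Of 41 BTB genes for CUL3, 22 were higher, 12 lower and 7 not called (median 0.21). Klhl21, which acts in mitosis, changed by 1.95 and Kctd13 by 1.35, while Spopl changed by −1.29 and Klhl2 by −1.28. Of 23 DCAF genes for CUL4, 10 were higher, 11 lower and 2 not called (median −0.09), with Dcaf11 at 0.73, Dcaf7 at 0.71, the autophagy regulator Ambra1 at −1.76 and Dcaf6 at −1.60. Of 31 receptors for CUL2 and CUL5, 13 were higher, 13 lower and 5 not called (median 0.05), with Asb6 at 1.31, Klhdc3 at 0.93, Asb3 at −2.27 and Spsb4 at −1.29. Several of these receptor genes are long, and with the length trend removed Btrc (166 kb) stood at −0.95, Ambra1 (189 kb) at −0.07 without a call, Dcaf6 (132 kb) at −0.43, Asb3 (217 kb) at −0.36 and Lmo7 (205 kb) at 2.74.

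Transcripts of known substrates of these ligases were measured as well, which says nothing of their protein. Of 31 tested, 17 were higher, 11 lower and 3 not called (median 0.19). The list includes Fbxo5, itself a member, whose own change is the list median. Cdkn1a, the p21 inhibitor of cyclin-dependent kinases, changed by 3.15. Cdt1, the licensing factor that CUL4 ligases degrade in S phase, averaged 270 ± 5.84 CPM in LP-184 cells and 88.7 ± 3.64 CPM in DMSO cells (SD, n = 3 each), which is 1.61 on the log2 scale. Ccnd1, encoding cyclin D1, averaged 298 ± 7.86 CPM in LP-184 cells and 898 ± 9.98 CPM in DMSO cells, a log2 fold change of −1.59. Hif1a, the VHL target, changed by −0.84.

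**Figure D5:**
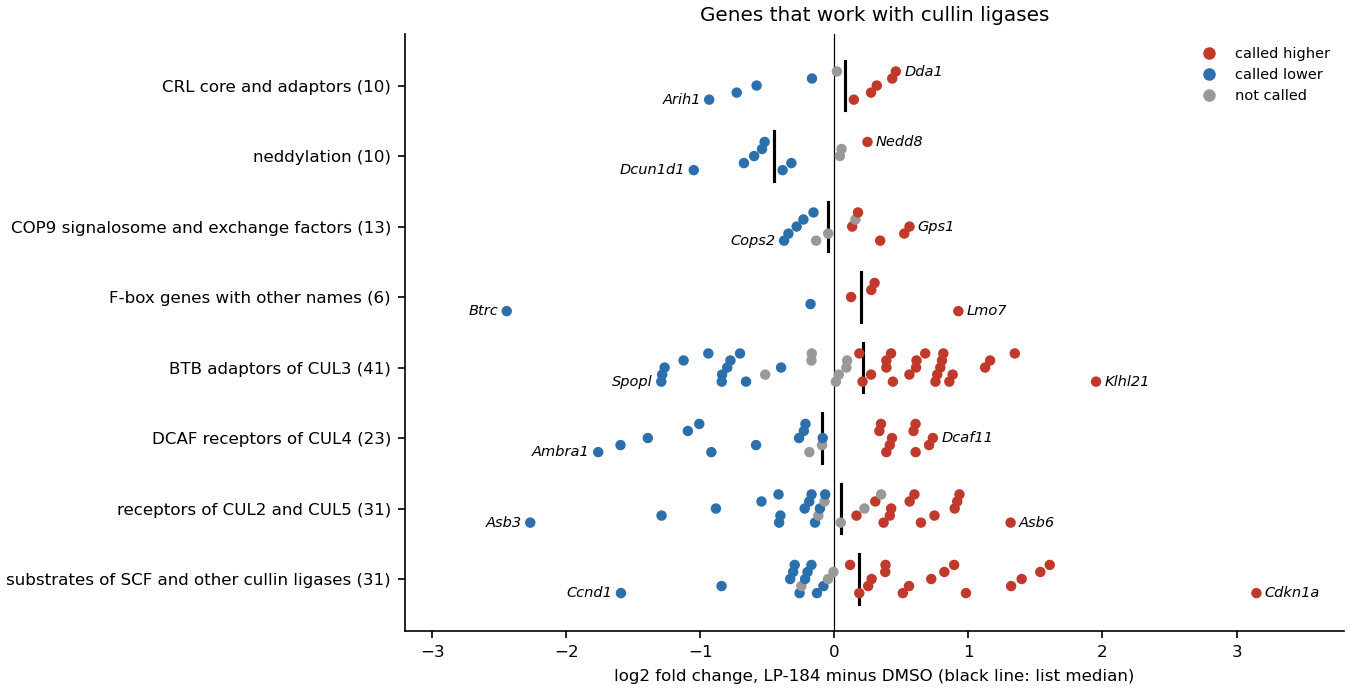
Log2 fold change (LP-184 minus DMSO) of each tested gene in 8 lists of cullin partners, receptors and substrates (red called higher, blue called lower, grey not called), with the list median as a black line and the number tested in brackets. The neddylation list has its median at −0.45, while the other medians lie between −0.09 and 0.21.

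Markers of the labelled cells were checked. All 9 epithelial markers were in the table, with a summed level of 4431 to 4468 CPM in LP-184 cells and 5573 to 5610 CPM in DMSO cells. The lower sum came from Krt7, which averaged 705 CPM in LP-184 cells and 1926 CPM in DMSO cells, and from Krt8 and Krt18, which were lower as well. The other 6 markers, among them Epcam, Cdh1, Cldn3 and Cldn4, were higher, and the median of the 9 was 0.36. The receptor genes Esr1 and Erbb2, which the triple-negative label would have at low protein, summed to 28.5 to 33.2 CPM in LP-184 cells and 50.3 to 53.5 CPM in DMSO cells. Of 8 leukocyte markers, Cd68, Csf1r and Lyz2 were in the table and summed to 59.9 to 72.2 CPM in LP-184 cells and 12.8 to 14.8 CPM in DMSO cells, with Lyz2 at 0 reads in all LP-184 libraries. Of 5 endothelial markers, 0 were in the table, and of 6 fibroblast markers, 1 was, with Pdgfra at 8.12 to 10.3 CPM in LP-184 cells and 6.37 to 7.62 CPM in DMSO cells. Their part in the members' changes was not tested.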

How the data were processed

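The authors deposited log2 CPM per gene symbol for the 6 libraries, and their own table of log2 fold changes with a p-value and an adjusted p-value per gene. Per the submitters' processing notes, the tools included STAR 2.7, featureCounts from Subread 2.0, fastp and edgeR, and the mouse build was mm10. The strand setting and the annotation were not given in the sources used here. Columns labelled control were read as DMSO. Subtracting the prior returned whole reads for 100% of the deposited log2 values (tolerance 1e-06), from which CPM and reads were computed.

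The 11931 genes that reached log2 CPM 0 in 3 libraries or more were fitted in R 4.3.3 by limma 3.58.1 (two-sided, trended empirical Bayes variance, Benjamini-Hochberg over all genes tested, threshold 0.05). Differences (LP-184 minus DMSO) keep the authors' prior, which understates changes of low genes. Fits were tested on simulated data with few changed genes. There 86.4% of 1.5-fold and 96.9% of 2-fold changes were recovered, and 6.15% of calls were false. Most genes moved in the real comparison, so these shares do not give its error rate. Spans came from GENCODE vM21 (GRCm38) for 12134 genes (95.9%) and all 93 members, promoter windows from RefSeq (GRCm38.p6) for 69 members. Counting error alone limits values of a few reads.

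Named genes were all cullins, the 4 largest called rises and falls per family whose higher group averaged at least log2 CPM 1, the 2 most abundant per family, 15 listed regulators, the called genes of the TRIM subsets, the 3 most abundant members not called, and the 2 largest called changes in each direction of each companion list. One member and 1 gene of a companion list are not reported here. Other members named with values were chosen after these were seen. The members and lists were chosen with earlier results of these data known. Alternatives varied scaling, pseudocount, filter, variance model, test, threshold, libraries, pairing and span trend. Same-numbered libraries of the 2 groups did not deviate together (correlations −0.0105, −0.0177 and −0.0065), so numbers were not taken to pair them.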

Additional observations from a re-analysis of the deposited data

How the results depend on the processing

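Across 18 alternatives, members called higher numbered 32 to 43 and members called lower 27 to 31, against 37 and 30. Under quantile normalization 14 rather than 9 members were higher by 2-fold or more. With the length trend removed 6 rather than 9 were higher and 4 rather than 13 were lower by 2-fold or more. Of 48 called named members, 46 kept direction and call in each alternative that tested them, other than removal of the length trend; the exceptions were Cul4a and Trim56, and 4 members (Fbxl2, Fbxo36, Trim12c and Trim30a) were not tested under the filter at log2 CPM 2. Among named members, removing the length trend turned the sign of Fbxo5 (−0.19), Fbxw8 (0.64), Trim21 (−0.0046) and Trim27 (−0.14). It also turned Trim33 (0.26), Trim44 (0.031) and Trim59 (−0.32). Of these, Fbxw8 and Trim59 gained a call. The named members that lost theirs were Trim44, Fbxl17, Fbxw7, Trim2, Trim12c and Cul4a. Over all members, 12 calls were lost, 4 turned to the opposite direction and 7 were gained. Median centring, which shifts the log2 fold change of every gene by the same amount, turned Fbxo31 to 0.044. It took Cul4a to −0.0052 without a call. Cul4a also lost its call in the fit without a variance trend. Fbxo32 ran from −0.083 to 0.21 when single libraries were left out. Trim56 lost its call without LP-184 replicate 3 and without DMSO replicate 3, under median centring, under quantile normalization and at an adjusted p of 0.01. Among named members, calls gained with the same sign were those of Fbxw8 under quantile normalization, without LP-184 replicate 2 and without DMSO replicate 3, of Trim21 under quantile normalization and without DMSO replicate 1, and of Trim59 under median centring. With the replicate number as a block, 67 members were called, with the same genes and directions. The replicates share only a number. Median centring moved the median of all genes to 0.08 and quantile normalization to 0.07. Depth limits Trim15, Trim30a and Fbxo36, and 5 members were too low to test.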

Other observations

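The 5 members below the filter were Fbxl12os with 39 reads over the LP-184 libraries and 37 over the DMSO libraries, Fbxo47 with 37 and 71, Trim34a with 38 and 26, Trim34b with 30 and 25, and Trim46 with 51 and 18. In the gene models, 56.8% of the 50-base words of Trim34b and 39.8% of those of Trim34a also occur in other genes, so their reads cannot be separated with certainty. In the authors' deposited table, 67 of the 88 tested members had an adjusted p below 0.05, and these were the same 67 genes called here. The sign was the same for 87 members; Trim7, not called in either, had 0.04 in the authors' deposited table and −0.04 here. The median absolute difference between the log2 fold changes was 0.0031 and the largest was 0.84, for Trim15.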
